A study of Zea mays with 15 samples.

Results

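In controls, 6 of 39145 genes measured in the maize leaf growth zone met set limits for a peak of RNA level in its middle centimetre. Zone 2 is the segment 1 to 2 cm from the leaf base, between zone 1 (0 to 1 cm) and zone 3 (2 to 3 cm). A gene was taken when both control zone 2 libraries held at least 10 counts of it per 1000000 reads of the library (CPM) and the lower of these values was at least 1.5 times the highest CPM in any control zone 1 or zone 3 library. The 6 genes are 0.0153% of all genes, and 1 further gene was not analysed here. By the same limits, 641 genes were highest in control zone 1 and 1087 in control zone 3. The genes were chosen by the CPM of all 8 control libraries, whose values are given as a description, without a test.

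All plants were of the maize inbred line B73 and grew in the field under plastic filters, with UV-A of 8 W/m2 in every group. Control plants received UV-B of 0.35 W/m2 and UV-B plants 1.5 W/m2. Leaf 4 was cut into segments 3 days after it emerged. Controls were sequenced with 3 libraries of zone 1, 2 of zone 2 (replicates 2 and 3) and 3 of zone 3. UV-B had 1 library of zone 1 (replicate 3) and 3 each of zones 2 and 3, all labelled as biological replicates.

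In the leaf of a grass, cells divide at the base, are pushed outward by younger cells, elongate and then mature, so that distance from the base stands for developmental age. Expanding cells loosen and rebuild their walls, and maturing cells take up photosynthesis. UV-B radiation, the most energetic part of sunlight that reaches plants, can reduce leaf growth.

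UV-B zone 3 replicate 1 held only 728 reads and is left out of all values below except the 15-library fit. The 14 other libraries held 1673416 to 19221143 reads, and the 2 control zone 2 libraries 4568682 and 7840247. A list of 4 zone 1 markers (GIF1, RNRL2, yab14 and cyclin11) summed to 248 to 276 CPM in control zone 1, 76.6 to 79.3 in control zone 2 and 11.6 to 17.9 in control zone 3. A list of 4 zone 3 markers (ssu1, psad1, FDX1 and mdh6) summed to 36.4 to 63.1, 235 to 252 and 912 to 1260 CPM in the same zones. By these lists control zone 2 lay between its neighbours. The 6 genes were above both because they were chosen to be, so nothing is read from the difference. Of 3 epidermis and cuticle markers, ocl1 and gl1 also had their highest control mean in zone 2, at 95.2, 138 and 126 CPM for ocl1 and 0.0186, 2.45 and 0.919 for gl1 in zones 1, 2 and 3. The remaining marker, ocl4, had means of 74.4, 53.2 and 22.0 CPM. The 3 summed to 126 to 205, 177 to 210 and 121 to 163 CPM in control zones 1, 2 and 3, and to 161, 151 to 179 and 128 to 132 CPM under UV-B. Their part in the values of the 6 genes was not tested. In segments of whole leaf, fewer cells of a type and less RNA per cell cannot be told apart.

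The 6 genes lie on 6 chromosomes. Of the 12 genes that flank them in the table, 4 had at least 1 CPM in both control zone 2 libraries, and none of these 4 had the zone 2 peak. The annotation gave a record for 4 of the 6, and a word for the product of only 1, a cellulase. GRMZM2G048165 (chromosome 7:142816579-142819685, on the build of the deposited table, which it does not name) carries the synonyms Cel18/34 and cellulase. Cellulases of plants cut glucan chains of the cell wall. GRMZM2G046070 (chromosome 2:10537219-10541464) carries the synonym cad1, which the annotation does not spell out. No role is given here for the 4 others. They are GRMZM2G176081 (chromosome 9:3010519-3012075, symbol LOC100382309), GRMZM2G107686 (chromosome 1:9391154-9393608), GRMZM2G044882 (chromosome 4:140010605-140012616, symbol LOC100280267) and GRMZM2G170766 (chromosome 8:108338930-108340745).

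The cellulase gene GRMZM2G048165 was a low-level gene with a shallow peak. Its control libraries gave 3.68, 6.42 and 5.09 CPM in zone 1, 10.5 and 12.4 in zone 2, and 3.98, 6.04 and 3.86 in zone 3. Its mean in control zone 2 was 11.4 ± 1.32 CPM (SD, n = 2), 2.26 times that of zone 1 and 2.47 times that of zone 3. Under UV-B it gave 6.82 CPM in zone 1, 2.75, 10.4 and 14.97 in zone 2, and 2.79 and 1.20 in zone 3. Replicate 1 of UV-B zone 2 was thus below the zone 1 library and just below the higher zone 3 library, and replicates 2 and 3 were above both zones.

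GRMZM2G046070 varied little among the zone 2 libraries of a treatment. Its control values were 12.2, 15.7 and 18.3 CPM in zone 1, 42.0 and 44.9 in zone 2, and 20.9, 24.0 and 20.3 in zone 3. Under UV-B it gave 22.2 CPM in zone 1, 40.0, 38.2 and 37.0 in zone 2, and 25.3 and 7.77 in zone 3. The zone 2 means were 43.5 ± 2.03 CPM in controls (SD, n = 2) and 38.4 ± 1.52 under UV-B (SD, n = 3). Zone 2 stood above zones 1 and 3 in both treatments without overlap.

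GRMZM2G176081 fell most steeply toward zone 3 among the genes detected there. Its control values were 5.20, 4.24 and 9.34 CPM in zone 1, 42.9 and 19.9 in zone 2, and 2.99, 2.34 and 0.161 in zone 3. The zone 2 value of replicate 2 was thus more than that of replicate 3 by a wide margin, and both were above every zone 1 and zone 3 library. Under UV-B the 3 zone 2 libraries were closer together, at 35.9, 33.6 and 30.8 CPM. UV-B zone 1 gave 19.5 CPM and UV-B zone 3 gave 3.43 and 0. Its zone 2 mean was 31.4 ± 16.3 CPM (SD, n = 2) in controls and 33.4 ± 2.57 (SD, n = 3) under UV-B.

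GRMZM2G107686 was read in zones 1 and 2 and in no zone 3 library. Its control values were 2.96, 1.23 and 2.69 CPM in zone 1, 11.6 and 10.2 in zone 2, and 0 in all 3 of zone 3. UV-B gave 7.02 CPM in zone 1, 5.38, 10.5 and 9.56 in zone 2, and 0 in both zone 3 libraries. A count of 0 allows up to 3 reads over the group, or 0.224 CPM in control zone 3 and 0.473 CPM in UV-B zone 3. Against these floors, which cover counting error only, zone 2 was at least 48.6-fold higher in controls and at least 17.9-fold higher under UV-B. Toward the base the step was smaller, and UV-B zone 2 replicate 1 was below the UV-B zone 1 library.

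GRMZM2G044882 was the most abundant of the 6. Its control values were 48.6, 27.7 and 48.8 CPM in zone 1, 218 and 185 in zone 2, and 74.2, 94.3 and 46.3 in zone 3. Under UV-B it gave 81.8 CPM in zone 1, 257, 159.6 and 170.3 in zone 2, and 77.0 and 13.1 in zone 3. The lower zone 2 library was 1.96 times the highest of the other zones in controls and 1.95 times under UV-B.

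GRMZM2G170766 only just met the limits, with a ratio of 1.51. Its control values were 3.95, 3.18 and 4.17 CPM in zone 1, 11.2 and 11.7 in zone 2, and 2.99, 7.40 and 6.27 in zone 3. Under UV-B it gave 5.10 CPM in zone 1, 10.3, 14.1 and 13.5 in zone 2, and 5.57 and 3.59 in zone 3. Its ratio under UV-B was 1.86, above that in the controls that chose it.

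**Figure D1:**
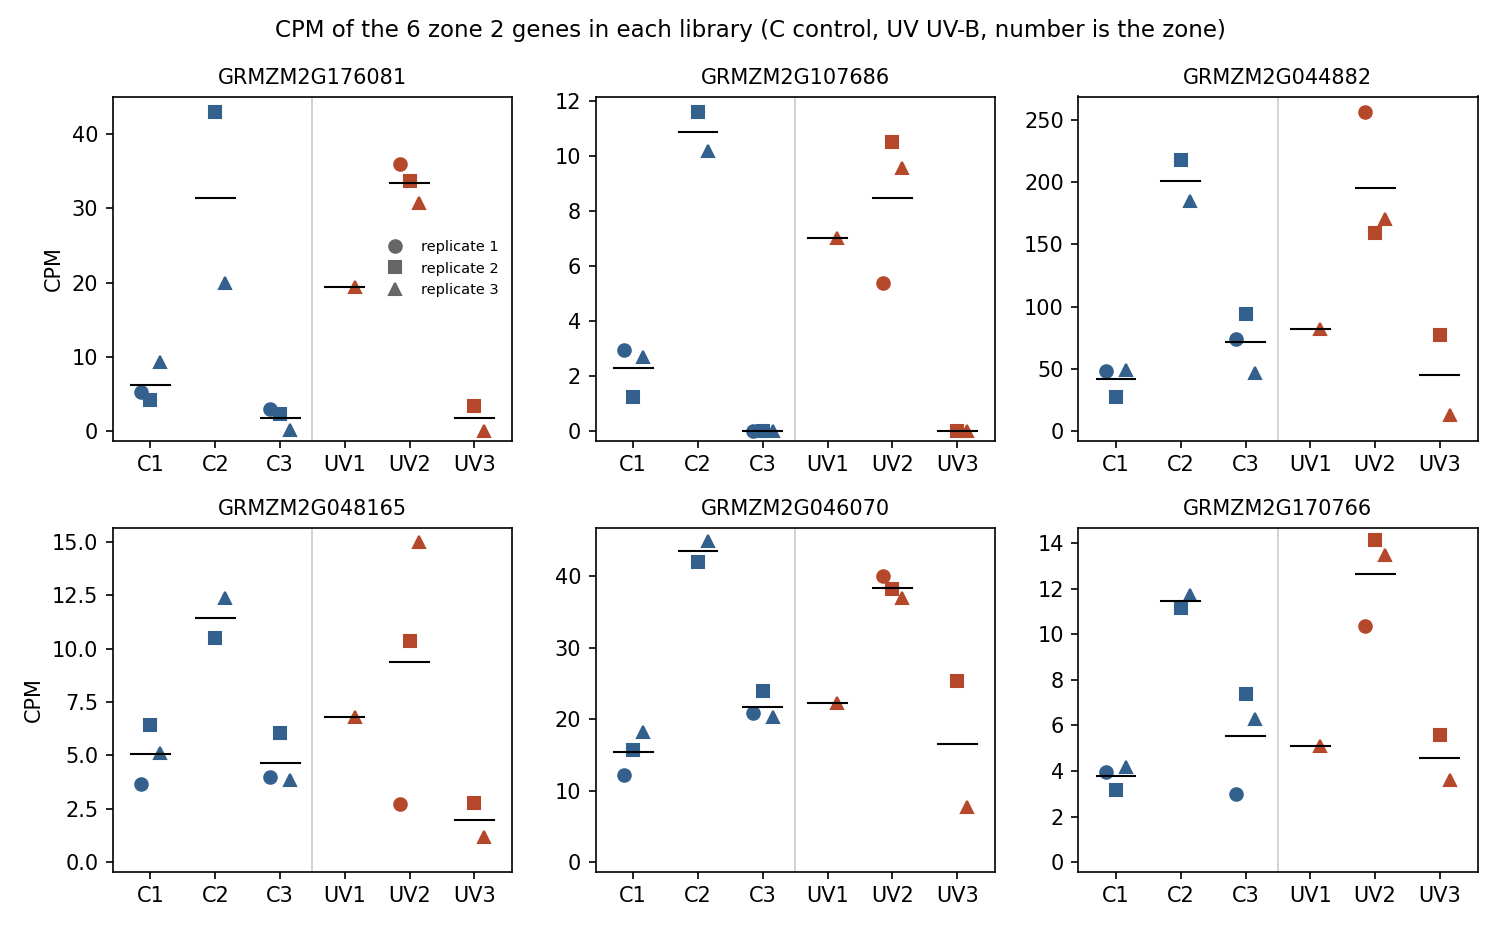
CPM of each gene (vertical axes, 1 scale per gene) in 14 libraries, by treatment and zone on the horizontal axis; points are libraries, shaped by replicate number, and lines are group means. Every gene has its highest UV-B mean in zone 2, and replicate 1 of UV-B zone 2 is below the UV-B zone 1 library for GRMZM2G107686 and GRMZM2G048165.

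The genes differed in which side of the peak was lower in controls. GRMZM2G176081, GRMZM2G107686 and GRMZM2G048165 had lower means in zone 3 than in zone 1. GRMZM2G044882, GRMZM2G046070 and GRMZM2G170766 had higher means in zone 3, by 1.72, 1.41 and 1.47 times. The libraries of zones 1 and 3 overlapped for GRMZM2G048165, at a ratio of means of 0.914, and also for GRMZM2G044882 and GRMZM2G170766. Under UV-B the zone 3 mean was below the single zone 1 library for all 6. It was 45.0 against 81.8 CPM for GRMZM2G044882, 16.5 against 22.2 for GRMZM2G046070 and 4.58 against 5.10 for GRMZM2G170766. For GRMZM2G046070 the zone 3 libraries lay on both sides of the zone 1 library, at 25.3 and 7.77 CPM. The same held for GRMZM2G170766, at 5.57 and 3.59 CPM.

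Per kilobase of transcript and 1000000 reads, the order of levels in control zone 2 was GRMZM2G044882 at 126 ± 18.9, GRMZM2G176081 at 35.4 ± 18.3, GRMZM2G046070 at 21.7 ± 1.87, GRMZM2G170766 at 7.13 ± 0.252, GRMZM2G048165 at 6.92 ± 0.798 and GRMZM2G107686 at 4.44 ± 0.403 (SD, n = 2). GRMZM2G176081 and GRMZM2G046070 overlapped in this order, as did GRMZM2G170766 and GRMZM2G048165. The means under UV-B had the same order.

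The limits used no value of the UV-B libraries, though they were set with earlier results of these data known. The UV-B libraries were tested alone, with edgeR's quasi-likelihood test over 23317 genes. All 6 genes were among those tested. No gene of the 6 passed an adjusted p of 0.05 for zone 2 against zone 3 or against zone 1, and neither did any other gene in these fits (0% called). At an unadjusted p under 0.05, 5 of the 6 were higher in zone 2 than in zone 3, against 9.17% of all genes, and 1 of the 6 was higher than in zone 1, against 8.66%. Only GRMZM2G170766 met both conditions, as did 0.0429% of all genes. UV-B zone 1 is a single library, assumed to vary as zones 2 and 3 do, so p-values against it hold no spread of that zone.

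All 6 fitted differences were above 0 in both contrasts, as were 54.1% of all genes against zone 3 and 50.8% against zone 1. The median log2 difference of the 6 was 2.03 against zone 3, beside 0.08 for all genes (unchanged with GRMZM2G107686 at its bound), and 0.95 against zone 1, beside 0.02. Against zone 3, GRMZM2G176081 was higher by 3.87 ± 0.73 on the log2 scale (SE, edgeR adjusted p = 0.124). GRMZM2G044882 was higher by 2.04 ± 0.74 and GRMZM2G048165 by 2.02 ± 0.80 (edgeR adjusted p = 0.245 and 0.272). GRMZM2G170766 was higher by 1.39 ± 0.42 and GRMZM2G046070 by 1.11 ± 0.49 (edgeR adjusted p = 0.197 and 0.308). GRMZM2G107686, at 0 in zone 3, had an edgeR adjusted p of 0.123.

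Against zone 1 the differences were smaller for 5 of the 6, and GRMZM2G170766 had the lowest p. It was higher in zone 2 by 1.46 ± 0.52 on the log2 scale (SE, edgeR adjusted p = 0.317). GRMZM2G044882 was higher by 1.44 ± 0.94, GRMZM2G046070 by 0.96 ± 0.62 and GRMZM2G176081 by 0.95 ± 0.72. GRMZM2G048165 and GRMZM2G107686 differed by 0.56 ± 0.87 and 0.42 ± 0.61, within 1 SE of 0.

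**Figure D2:**
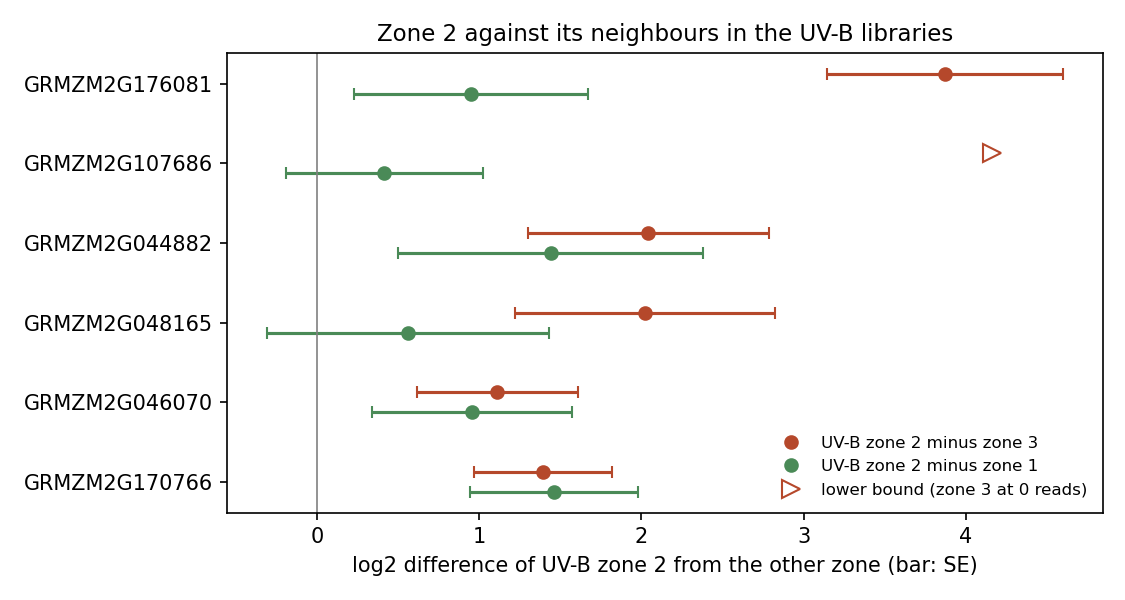
Fitted log2 difference of UV-B zone 2 from UV-B zone 3 and from UV-B zone 1 (horizontal axis) for each gene, with bars of 1 SE; the open triangle is the lower bound of GRMZM2G107686, at least 17.9-fold. All points lie above 0, and the bars of GRMZM2G107686 and GRMZM2G048165 against zone 1 cross it.

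The calls against zone 3 changed with the model. DESeq2 on the same 6 libraries called 2 of the 6, GRMZM2G107686 and GRMZM2G176081, where it called 2.59% of all genes higher. An edgeR fit of 14 libraries in 6 groups called the same 2 genes, with adjusted p = 0.00891 and 0.0240, where it called 3.5%. Over the alternatives other than a replicate block, their adjusted p ran from 0.000745 to 0.457 and from 3.41e-06 to 0.457. The edgeR fit that also kept the library of 728 reads called 4 of the 6, adding GRMZM2G044882 and GRMZM2G170766, where it called 3.77%. Part of the spread in the 14-library and 15-library fits comes from the control libraries that chose the genes. Against zone 1, DESeq2 called 0 of the 6 and 3.4% of all genes higher, the 14-library fit 0 of the 6 and 2.37%, and the 15-library fit 0 of the 6 and 1.88%.

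By values alone, all 3 UV-B zone 2 libraries were above the UV-B zone 1 and zone 3 libraries for 4 of the 6 genes, against 1.81% of the genes tested. These were GRMZM2G176081, GRMZM2G044882, GRMZM2G046070 and GRMZM2G170766. Set against zone 3 alone, 5 of the 6 did not overlap, against 20.5% of the genes tested, and against zone 1 alone 4 of the 6, against 27.4%. Without UV-B zone 2 replicate 1 all 6 genes were above both zones without overlap, against 3.56% of the genes tested. With any other UV-B zone 2 or zone 3 library left out 4 were, and with unique reads 2. Shares of all genes were not counted for these settings. With no library left out, the lowest zone 2 library was at least 1.5 times the others for 3 of the 6, against 0.176% of the genes tested. With both limits applied to the UV-B libraries, 5 genes in all were found, 0.0128% of 39145. Of these 5, 3 (60%) were among the 6, which is 50% of the 6, namely GRMZM2G176081, GRMZM2G044882 and GRMZM2G170766. The other two were GRMZM2G008196 and GRMZM2G700208.

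Between treatments no test is given, since the control libraries chose the genes. The UV-B zone 2 mean was 0.778 to 1.10 times the control mean, and the zone 2 libraries of the treatments did not overlap for 1 of the 6, GRMZM2G046070, against 12.7% of the genes tested. The control zone 2 values were chosen for being high, so nothing is read from this. The UV-B zone 1 library was above all 3 control zone 1 libraries for 6 of the 6, against 34.8% of the genes tested, at 1.35 to 3.11 times their mean. The choice had favoured low control zone 1 values, so nothing is read from that count. The same library held 2.60 CPM of the shoot apex marker kn1 and 2.39 CPM of lg3, for which the control zone 1 means were 0 and 0.116 CPM and the highest mean of any other group 0.109 CPM for kn1. Their part in the 6 genes' values was not tested.

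The UV-B zone 3 libraries also differed from each other. Replicate 3, the shallowest at 1673416 reads, was below all control zone 3 libraries for 4 of the 6 genes, against 26% of the genes tested. Of these, GRMZM2G176081 had 0 reads and GRMZM2G048165 had 2 reads there, where 3 reads are 1.79 CPM. GRMZM2G044882 gave 77.0 CPM in replicate 2 and 13.1 in replicate 3, and GRMZM2G046070 gave 25.3 and 7.77. Without replicate 2 the median log2 difference of the 6 from zone 3 was 3.54, and without replicate 3 it was 1.43.

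The 6 genes were of 2 kinds in their annotated transcripts. GRMZM2G176081, GRMZM2G107686, GRMZM2G048165 and GRMZM2G170766 each had 1 transcript, and 100% of their reads were counted as unique to it. GRMZM2G044882 had 6 transcripts and GRMZM2G046070 had 3, and 0.961% and 2.54% of their reads were unique. A read that fits several transcripts of a gene does not count as unique. The way the authors divided such reads is not given in the labels or headers used here. The values of single forms below rest on that division.

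By the reads assigned to it, the longest annotated form of GRMZM2G046070 differed more clearly between zones 2 and 3 than its other forms. This form has 2523 bases. Only 3 and 14 reads of the gene were unique in the 2 control zone 2 libraries. The longest form held 40.1% and 76.4% of the gene's reads there, while the gene's total was 42.0 and 44.9 CPM. The longest form gave 8.79, 11.4 and 13.02 CPM in control zone 1, 16.9 and 34.3 in zone 2, and 5.98, 7.01 and 10.8 in zone 3. Its other forms summed to 3.41, 4.30 and 5.24 CPM, 25.2 and 10.6, and 14.9, 16.9 and 9.48 in the same zones. The other forms overlapped between zones 2 and 3, and the longest form did not. Against zone 1 neither overlapped, and there the other forms were further apart. Their lower zone 2 library gave 10.6 CPM against at most 5.24 in zone 1, beside 16.9 against 13.02 for the longest form. Under UV-B the longest form gave 12.0 CPM in zone 1, 19.0, 22.3 and 25.7 in zone 2, and 5.57 and 2.99 in zone 3. The other forms gave 10.2 CPM, then 21.0, 15.8 and 11.3, then 19.7 and 4.78, again with overlap between zones 2 and 3.

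The longest form of GRMZM2G044882, of 1886 bases in 1 exon, spans most of the locus. It gave 17.8, 15.3 and 17.3 CPM in control zone 1, 60.0 and 98.0 in zone 2, and 6.48, 38.2 and 5.30 in zone 3. Its other forms summed to 30.9, 12.4 and 31.5 CPM, 158 and 86.6, and 67.7, 56.1 and 41.0. Both sets were highest in zone 2 without overlap. Under UV-B the longest form gave 47.9 CPM in zone 1, 77.3, 66.2 and 70.6 in zone 2, and 13.1 and 2.99 in zone 3, and the other forms 33.9, then 179, 93.4 and 99.7, then 63.9 and 10.2.

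**Figure D3:**
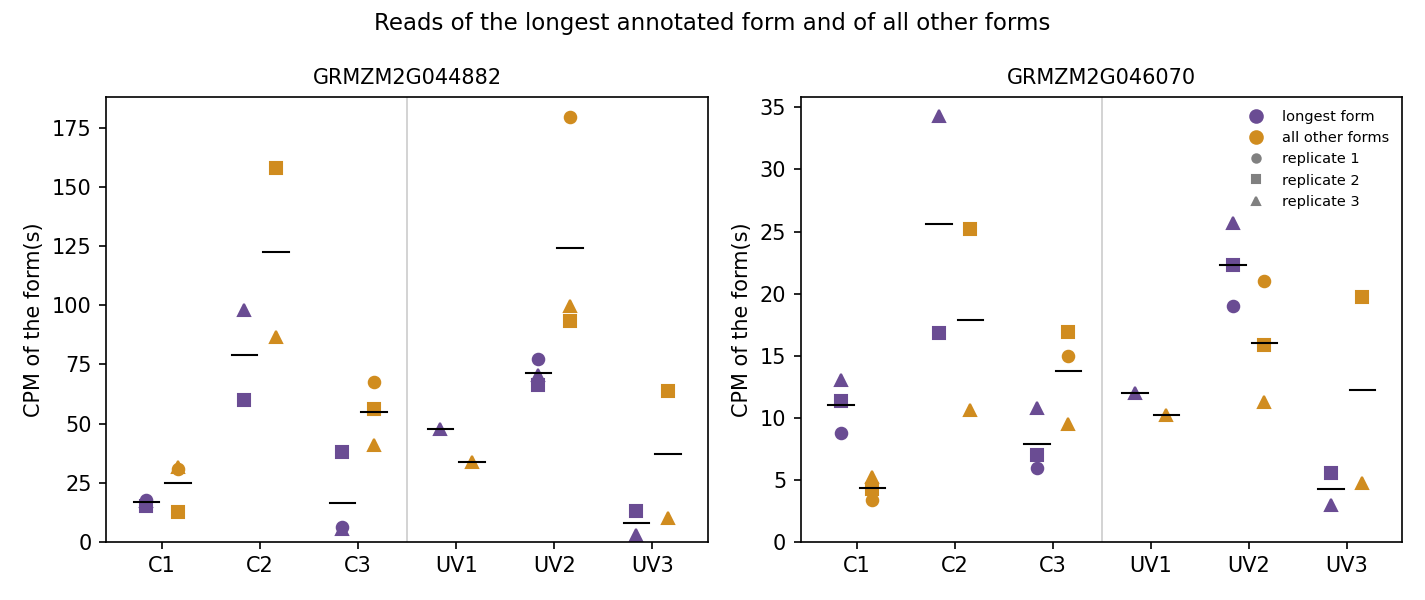
CPM of the longest annotated transcript and the sum of all other transcripts (vertical axis) for both genes with several transcripts, by treatment and zone; points are libraries, shaped by replicate number, and lines are group means. Only the other forms of GRMZM2G046070 overlap between zones 2 and 3, in controls and under UV-B. How reads shared by forms were divided is not known.

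Just outside the limits were 2 genes with almost no reads in control zones 1 and 3. Lowest inside were GRMZM2G107686, at 10.2 CPM, and GRMZM2G170766, at a ratio of 1.51. With a lower zone 2 value of 5 to 10 CPM, 5 genes met the ratio. GRMZM2G388045 gave 8.97 and 6.25 CPM in control zone 2 and at most 1 read in any other control library. Under UV-B it gave 8.13, 6.70 and 5.49 CPM in zone 2, 0.156 in zone 1 and 0 in zone 3. GRMZM2G008196 gave 15.5 and 5.48 CPM in control zone 2 and at most 2 reads in any other control library, and 13.4, 10.9 and 10.6 in UV-B zone 2. Just under the limit on the ratio were 11 genes, at 1.27 to 1.44. UV-B zone 2 was highest without overlap for 3 of the 5 and 7 of the 11, against 1.81% of the genes tested. By at least 1.5 times it was highest for 3 of the 5 and 0 of the 11, against 0.176%.

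**Figure D4:**
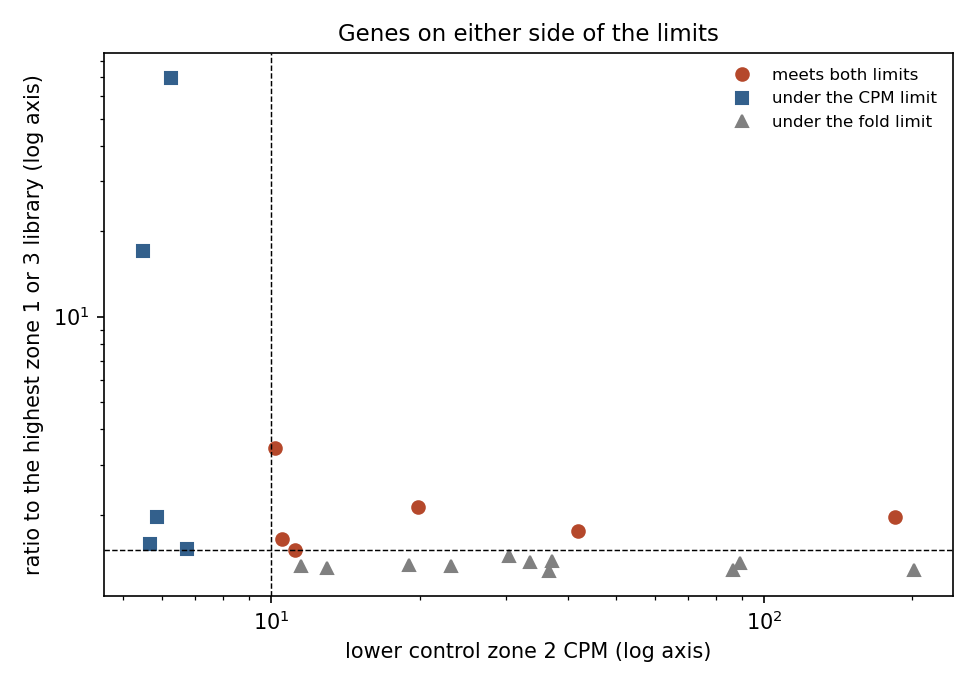
Lower control zone 2 CPM (horizontal log axis) against its ratio to the highest control zone 1 or zone 3 library (vertical log axis) for the 6 genes and those just outside each limit; dashed lines are the limits. The 2 uppermost squares, at 5.48 and 6.25 CPM, have ratios that rest on only 2 reads and 1 read in the highest other library.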

How the data were processed

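For 15 labelled libraries the authors deposited read counts per transcript, total and unique, with transcript length and position, per the file headers. Neither the aligner nor the genome build is given in the sources used here. A further 21 value columns, of 3 libraries that match no label, were not used. Total counts of 62892 transcripts were summed to 39145 genes. CPM divides by the library total, without TMM. Names came from RefSeq (Zm-B73-REFERENCE-NAM-5.0), which holds a record for 18843 genes, without descriptions or sequences, so functional classes and promoters were not analysed.

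The UV-B libraries of over 1000000 reads entered edgeR 4.0.16, run in R 4.3.3 (filterByExpr, TMM, two-sided quasi-likelihood F test, Benjamini-Hochberg adjustment over 23317 genes, threshold 0.05). The fit had 3 residual degrees of freedom. P-values set each difference against the spread between the libraries of a group, estimated in part from all genes (median prior degrees of freedom 3.958). DESeq2 1.42.0 was an alternative. All 6 genes are named. The genes, limits and marker lists were chosen with earlier results of these data known. The edgeR fit was also run on simulated counts with the same spread for every gene, which does not measure its power in these data. A part of the marker values is not reported here.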

Additional observations from a re-analysis of the deposited data

How the results depend on the processing

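Against UV-B zone 3, the number of the 6 genes called was 0 with edgeR on the 6 UV-B libraries and for every library left out. It was 2 in the 14-library fit, 4 in the 15-library fit, 2 with DESeq2, 2 without a filter on low counts, and 6 with a replicate block. The block leaves 1 residual degree of freedom. It called 6010 genes in all, 3391 of them higher in zone 2. Its edgeR adjusted p was 9.92e-10 for GRMZM2G107686 and 7.46e-22 for GRMZM2G176081. With 1 residual degree of freedom these p-values rest on a spread shared over genes, so nothing is read from them. The fit without a filter called 166 of 30706 genes higher. Same-numbered UV-B zone 2 and 3 libraries deviated together from their group means with r = 0.284 and 0.406, from only 2 pairs. The deviations of the 2 zone 3 libraries from their own mean are equal and opposite, so these r values are not independent. The sample titles also give the zones of a replicate a shared number, which is 7 for both control replicate 3 and UV-B replicate 1. Replicates of the same number in controls and UV-B carry different title numbers. The labels do not say what the title number marks, so it is not taken as a pairing. No alternative called any of the 6 against UV-B zone 1. The median log2 difference from zone 3 was 2.91 with unique reads and 1.43 to 3.54 with 1 library left out. With unique reads GRMZM2G044882 turned to -0.13 against zone 1 (edgeR adjusted p = 0.974, range over its alternatives 0.0560 to 0.974), GRMZM2G046070 was not tested, and UV-B zone 2 was highest without overlap for 2 genes, and for 4 to 6 with 1 library left out. Chosen after seeing the data, zone 2 against zone 3 alone, without the UV-B zone 1 library, gave 5. Causes were not tested.

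The choice of genes depended on its limits and on single libraries. It gave 11 genes with unique reads (4 of the 6 among them), 11 at 5 CPM, 2 at 20 CPM, 17 at a looser ratio and 2 at a ratio of 2. With 1 control library left out it gave 6 to 98, with 98 without zone 2 replicate 2, 46 without zone 2 replicate 3, 11 without zone 3 replicate 1 and 10 without zone 3 replicate 2. With TMM-scaled CPM GRMZM2G170766 was lost, at a ratio of 1.49. In UV-B zone 3 replicate 3, a level of 1.79 CPM is 3 reads.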
